A study of Rattus norvegicus with 51 samples.

Results

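Cardiac potassium channels repolarize the myocyte after each beat, and 7 of their genes were followed through the first days of engineered rat heart tissue: Kcnip2, Kcnd2, Kcnd3, Kcna5, Kcnh2, Kcnq1 and Kcnj2. They were picked by gene symbol, with earlier results of these data known. The 7 are among 18602 genes with a symbol of their own on the arrays. Each was measured by 1 probe set. The working list was named for potassium and sodium channels, but it holds potassium channel genes only.

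The transient outward current, which gives the early notch of the action potential, flows through pores made of the proteins of Kcnd2 (Kv4.2) and Kcnd3 (Kv4.3), and the protein of Kcnip2 (KChIP2) binds these pores and raises their number at the cell surface. Kcna5 encodes Kv1.5, a pore of an ultrarapid delayed rectifier, and Kcnh2 (ERG) and Kcnq1 (KvLQT1) encode the pores of the rapid and slow delayed rectifier currents that end the plateau. Kcnj2 encodes Kir2.1, the inward rectifier that holds the resting potential of ventricular myocytes.

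Ventricular myocytes of newborn Sprague-Dawley rats were grown on silicone membranes coated evenly with fibronectin (isotropic tissue) or with fibronectin in a micropattern that aligns the cells (anisotropic tissue). The 0 h group held isotropic, unstretched tissue 1 h after seeding, with 1 array from each of 6 cell harvests (n = 6). At 6, 24 and 96 h there were 5 groups of 3 arrays each: isotropic unstretched, isotropic stretched, anisotropic unstretched, and anisotropic stretched along the pattern (longitudinal) or across it (transverse). The labels name no transgene and no drug. All groups started in medium with 10% serum, which was replaced after 48 h by medium with 2% serum. Only the 96 h groups had reached that change, so the 96 h point also differs from the earlier ones in serum. Tissues were made from primary cells that can hold other cell types of the heart, and all 10 cardiomyocyte markers examined, among them Myh6, Tnnt2 and Actc1, lay above the median gene. Every fibroblast marker examined, among them Col1a1 and Postn, did too, so this does not tell the cell types apart.

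Values are log2 RMA signals, the summarised and quantile-normalized brightness of a probe set, on which 1 unit is a factor of 2. A log2 change is the first group minus the second in a limma fit over all 51 arrays with a term for harvest, given ± its standard error, and adjusted p-values are Benjamini-Hochberg values over all 18602 genes from that fit, with 0.05 as the threshold. Array medians ran from 5.31 to 5.43. On an axis drawn from anisotropic unstretched tissue at 24 h (0) to the same tissue at 96 h (1), 2 arrays lay apart from their labels: replicate 1 of isotropic stretched tissue at 24 h stood at 0.90, where the other arrays of its group stood at 0.067 and 0.056, and replicate 1 of isotropic unstretched tissue at 96 h stood at 0.22, where the others stood at 1.03 and 1.01. The labels were kept, and counts are also given without these 2 arrays. Several comparisons share the 0 h arrays or the anisotropic unstretched arrays of a time as controls.

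Stretches of genome before a start of 3 of the genes are shown. The genes were chosen because Kcnip2 and Kcnj2 were lower than at 0 h at each later time and Kcna5 passed no test. These stretches were thus picked after the values were seen. Kcnq1 was also lower than at 0 h at each later time, but no stretch was at hand for it. The stretches shown are RefSeq sequences of the GRCr8 build, each the 250 bases before the start used, written 5′ to 3′ on the gene's own strand. Capitals mark GC boxes (GGGCGG on either strand). The stretch of Kcnip2 is on the minus strand at chr1:254613899-254614148. That of Kcnj2 is on the plus strand at chr10:96559975-96560224 and that of Kcna5 on the minus strand at chr4:161043810-161044059. The stretches of Kcnip2 and Kcna5 lie inside the annotated spans of these genes (chr1:254590172-254614437 and chr4:161040853-161044311). The start used for them is thus not the outermost 5′ end of the gene. The Kcnj2 stretch ends just before its annotated span, which begins at 96560225.
Kcnip2: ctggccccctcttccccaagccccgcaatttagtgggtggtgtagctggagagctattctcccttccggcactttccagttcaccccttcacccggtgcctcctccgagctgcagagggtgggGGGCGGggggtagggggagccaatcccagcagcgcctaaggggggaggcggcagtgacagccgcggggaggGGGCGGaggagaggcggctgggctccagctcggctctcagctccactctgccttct
Kcnj2: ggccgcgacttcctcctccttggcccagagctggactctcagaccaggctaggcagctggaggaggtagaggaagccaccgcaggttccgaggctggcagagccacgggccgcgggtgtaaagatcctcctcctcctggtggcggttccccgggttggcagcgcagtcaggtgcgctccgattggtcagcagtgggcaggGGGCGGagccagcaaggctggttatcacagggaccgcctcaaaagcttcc
Kcna5: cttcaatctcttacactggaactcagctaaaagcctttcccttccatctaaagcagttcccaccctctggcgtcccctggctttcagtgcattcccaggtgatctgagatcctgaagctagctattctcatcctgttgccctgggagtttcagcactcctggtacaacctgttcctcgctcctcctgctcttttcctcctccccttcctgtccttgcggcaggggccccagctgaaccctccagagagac

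RefSeq promoters of 300 bases, 250 before the start used and 50 after it, were at hand for 5 of the 7 genes. The promoters of Kcnip2, Kcnd2 and Kcna5 lie inside the annotated span of their gene. Motif matches in these promoters are thus not matches at the outermost 5′ end of the gene. A GC box, the motif read by Sp1 and its relatives, occurred 2 times in that of Kcnip2 and 1 time each in those of Kcnj2 and Kcnd3, and those of Kcnd2 and Kcna5 had no match. Of 33469 rat promoters of this length 33.1% hold at least 1 GC box. The E-box CANNTG was found in the promoters of Kcnip2 (1), Kcnd2 (1), Kcnj2 (2) and Kcna5 (2) and in 72.1% of all promoters. The TATA box TATAAA had no match in any of the 5 and occurs in 14.2% of all promoters. The GATA motif GATAAG (7.05% of all promoters), the AP-1 site TGANTCA (7.33%) and the CArG box of serum response factor (1.64%) had no match either. Both strands were read, and overlapping matches were each counted. A match is letters in a window, not a bound site.

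The genes fell into a brighter and a dimmer set. Averaged over the 51 arrays, the log2 signal was 8.54 for Kcnq1, 8.20 for Kcnh2, 7.57 for Kcnj2, 6.90 for Kcnip2, 4.93 for Kcnd3, 4.80 for Kcna5 and 4.49 for Kcnd2, and the last 3 lay below the median gene at 5.97. Signals of different probe sets cannot be ranked as amounts of RNA, since each probe set has its own brightness. Kcnip2 moved most, over 3.99 log2 units between its highest and lowest group after adjustment for harvest, followed by Kcnj2 with 1.43, Kcnh2 with 1.23, Kcnq1 with 0.87, Kcnd2 with 0.46, Kcnd3 with 0.44 and Kcna5 with 0.30. In a limma F test for any difference among the 16 groups 6 of the 7 passed, where 63.8% of all genes did, and Kcna5 did not (adjusted p = 0.168).

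Kcnip2, the accessory subunit, fell through the first day in culture and was still low at 96 h. The 6 arrays at 0 h read 9.65, 9.14, 9.30, 9.66, 9.32 and 9.54 (9.43 ± 0.21, SD, n = 6). In isotropic unstretched tissue the arrays read 8.08, 8.24 and 7.70 at 6 h, 6.79, 5.79 and 5.93 at 24 h, and 5.88, 6.0 and 5.96 at 96 h. No later array overlapped the 0 h group: all 45 arrays of the 15 later groups, whatever their layout or stretch, lay below the lowest 0 h array. Against 0 h the log2 change was -1.49 ± 0.20 at 6 h (2.80-fold lower, adjusted p = 2.94e-07), -3.37 ± 0.20 at 24 h (10.3-fold lower, adjusted p = 9.27e-16) and -3.55 ± 0.20 at 96 h (11.7-fold lower, adjusted p = 2.58e-16). The gene fell in all 3 harvests that held both groups at each time, with differences of -1.60 to -0.90 at 6 h and -3.77 to -3.14 at 96 h. In the limma fit most of the fall came before 24 h: 24 h against 6 h gave -1.88 ± 0.23 in isotropic tissue (adjusted p = 3.17e-07) and -1.56 ± 0.23 in anisotropic tissue (adjusted p = 7.02e-06), where 13.7% and 13.5% of all genes passed, while 96 h against 24 h gave -0.18 (95% interval -0.64 to 0.28) and 0.06 (-0.40 to 0.52), neither past the threshold (4.63% and 14.3% of all genes). In the order of its 16 group means only 2 of 15 neighbouring steps exceeded the larger SD of the 2 groups, the step from 0 h to the 6 h groups and the step from the 6 h groups to all later ones.

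The pores that KChIP2 serves, Kcnd2 and Kcnd3, passed no comparison with 0 h when all arrays were used. Kcnd2 read 4.34 to 4.83 at 0 h (median 4.47, n = 6), and in isotropic unstretched tissue 4.88, 4.84 and 4.55 at 6 h, 4.56, 4.34 and 4.27 at 24 h and 4.34, 4.54 and 4.36 at 96 h. Each of these groups overlapped the 0 h arrays, and the changes of 0.20, -0.13 and -0.14 did not pass the threshold (adjusted p = 0.103, 0.313 and 0.273 in limma). The 6 h change passed without replicate 3 at 0 h (0.30, adjusted p = 0.00799) or replicate 3 at 6 h (0.30, adjusted p = 0.0345). Kcnd2 was lower at 24 h than at 6 h in isotropic tissue by -0.34 ± 0.11 (adjusted p = 0.033), a call that was lost when any of replicates 1 and 2 at 6 h or 2 and 3 at 24 h was left out (-0.29 to -0.32); the same step in anisotropic tissue was -0.25 ± 0.11 (adjusted p = 0.130). Kcnd3 stayed within 4.67 and 5.41 on all 51 arrays, and its changes against 0 h of 0.15, -0.06 and -0.06 did not pass (adjusted p = 0.191, 0.672 and 0.622 in limma). The 6 h change of Kcnd3 passed when changes were taken from the 0 h array of the same harvest (0.19, adjusted p = 0.0449) or without replicate 3 at 6 h (0.24, adjusted p = 0.0471). Both signals lie below that of the median gene.

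**Figure D1:**
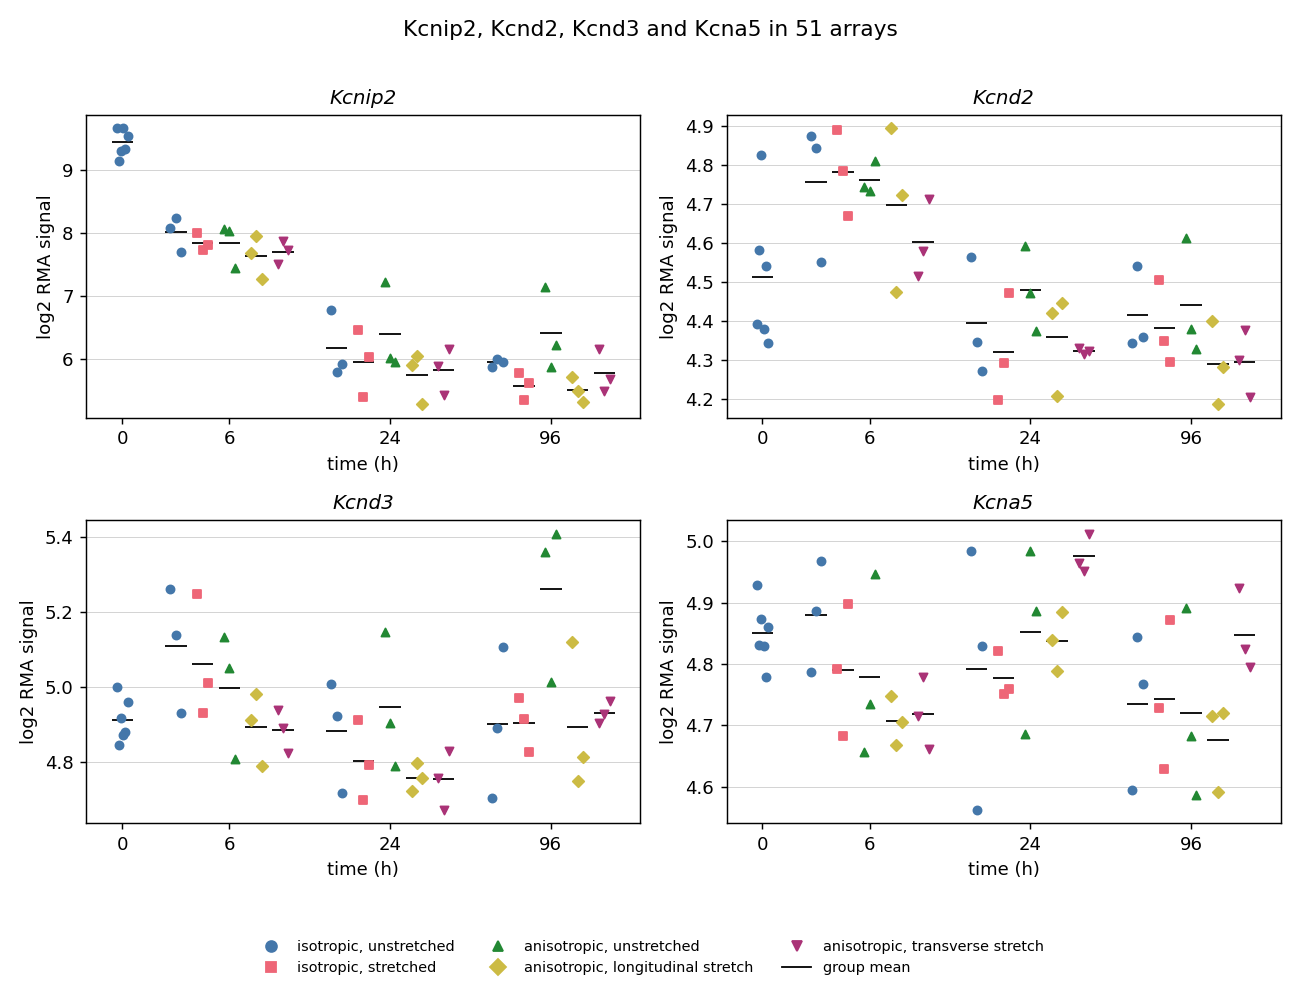
Log2 RMA signal (vertical axis) of Kcnip2, Kcnd2, Kcnd3 and Kcna5 on each of 51 arrays by time in hours (horizontal axis); points are arrays, shapes and colours are the tissue layout and stretch, and black lines are group means. Kcnip2 drops from about 9.43 at 0 h to under 7.22 on every array at 24 and 96 h, and the other panels cover less than 1 unit each, on axes that differ between panels.

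Kcna5, the Kv1.5 pore, read 4.78 to 4.93 at 0 h (median 4.85, n = 6) and 4.56 to 5.01 on the 45 later arrays. The changes in isotropic unstretched tissue were 0.03 (95% interval -0.13 to 0.20) at 6 h, -0.04 (-0.20 to 0.12) at 24 h and -0.11 (-0.27 to 0.05) at 96 h. It passed no comparison in the limma fit. In its order of group means 1 of 15 neighbouring steps exceeded the larger SD, from transversely stretched tissue at 24 h, its highest group, to isotropic unstretched tissue at 6 h.

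Kcnj2, the inward rectifier, was lower than at 0 h at each later time, and lowest at 96 h in isotropic tissue. In the tests between later times its steps of -0.26 from 6 to 24 h and -0.45 from 24 to 96 h did not pass (adjusted p = 0.320 and 0.118 in limma). The arrays read 8.19, 8.06, 8.40, 8.35, 8.49 and 8.64 at 0 h, 7.65, 7.66 and 7.79 at 6 h, 7.61, 7.19 and 7.64 at 24 h and 6.99, 6.93 and 7.05 at 96 h, all in isotropic unstretched tissue. None of these isotropic unstretched groups at 6, 24 and 96 h overlapped the 0 h arrays. The log2 change in limma was -0.60 ± 0.14 at 6 h (adjusted p = 0.00106), -0.86 ± 0.14 at 24 h (1.82-fold lower, adjusted p = 6.19e-06) and -1.31 ± 0.14 at 96 h (2.48-fold lower, adjusted p = 2.71e-09), lower in 3 of 3 harvests at each time. Across all layouts and stretches 43 of the 45 later arrays lay below the lowest 0 h array.

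Kcnq1, the slow delayed rectifier pore, was lower at 6, 24 and 96 h, and no step between later times passed. It read 8.92 to 9.08 at 0 h (median 9.04, n = 6), 8.65, 8.31 and 8.31 at 6 h, 8.61, 8.35 and 8.54 at 24 h and 8.45, 8.63 and 8.72 at 96 h in isotropic unstretched tissue. These groups did not overlap the 0 h arrays, and the changes in limma were -0.61 ± 0.13 (adjusted p = 0.000265), -0.55 ± 0.13 (adjusted p = 0.000763) and -0.44 ± 0.13 (adjusted p = 0.00653). The 96 h call was lost without replicate 1 of isotropic unstretched tissue at 96 h, one of the arrays that lie apart (-0.26, adjusted p = 0.157), and without both of those arrays (-0.26, adjusted p = 0.121). Over all 15 arrays of a time its median was 8.31 at 6 h, 8.35 at 24 h and 8.79 at 96 h.

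Kcnh2, the rapid delayed rectifier pore, followed another course. It read 7.97 to 8.37 at 0 h (median 8.25, n = 6), then 8.81, 8.51 and 8.64 at 6 h, 8.74, 8.0 and 8.21 at 24 h and 8.04, 7.85 and 7.87 at 96 h in isotropic unstretched tissue. The 6 h arrays all lay above the 0 h arrays, but the change of 0.35 ± 0.16 did not pass (adjusted p = 0.105 in limma), nor did the 96 h change of -0.38 ± 0.16 (adjusted p = 0.0703). The 6 h change passed without replicate 3 of isotropic stretched tissue at 24 h (0.31, adjusted p = 0.0471). The 96 h change passed without that array (-0.42, adjusted p = 0.00598), without replicate 2 of that group (adjusted p = 0.0303) or replicate 4 at 0 h (adjusted p = 0.0338), and with dim genes left out (adjusted p = 0.0482). Without the 2 arrays that lie apart it was -0.37 and did not pass (adjusted p = 0.131). Of the 45 later arrays 21 lay above the highest 0 h array and 15 below the lowest.

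In the order of all 16 groups, 0 h stood first for Kcnip2, the 6 h groups next, and the groups of 24 and 96 h were mixed below them. The 5 groups at 6 h had means from 7.64 ± 0.34 (longitudinal stretch) to 8.01 ± 0.28 (isotropic unstretched, SD, n = 3). At 24 h they ran from 5.75 ± 0.40 (longitudinal stretch) to 6.40 ± 0.71 (anisotropic unstretched), and at 96 h from 5.51 ± 0.19 (longitudinal stretch) to 6.42 ± 0.65 (anisotropic unstretched). These are means before adjustment for harvest. After it the lowest group at 24 h was isotropic stretched tissue at 5.86, beside 5.88 under longitudinal stretch. For Kcnj2 the means ran from 7.68 ± 0.06 to 7.89 ± 0.18 at 6 h, from 7.19 ± 0.32 to 7.85 ± 0.36 at 24 h and from 6.87 ± 0.21 to 7.51 ± 0.50 at 96 h. The lowest at 24 and 96 h was isotropic stretched tissue. For Kcnh2 they ran from 8.33 ± 0.30 to 8.65 ± 0.32 at 6 h, from 7.79 ± 0.66 (isotropic stretched) to 8.64 ± 0.10 at 24 h and from 7.41 ± 0.20 (longitudinal stretch) to 8.17 ± 0.30 (anisotropic unstretched) at 96 h. Kcnq1 had medians over the 15 arrays of a time that were given above, and its single lowest array (7.48) was a stretched isotropic one at 24 h. Kcnd2 had a median of 4.73 over the 15 arrays at 6 h and of 4.34 and 4.35 at 24 and 96 h. In the order of group means, neighbours differed by more than the larger SD for 1 of 15 steps in Kcnh2 and in Kcnj2, and for none in Kcnd2, Kcnd3 and Kcnq1.

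In all, 9 of 21 gene and time pairs passed the limma threshold against 0 h, 3 at each time and every one lower. Lower calls made up 12.5%, 16.1% and 16.1% of all genes at 6, 24 and 96 h (31.7%, 36.8% and 37.9% for either direction), against 3 of 7 among these genes. Their median log2 change was 0.03, -0.13 and -0.38, beside -0.01, 0.02 and 0.04 over all genes. Without the 2 arrays that lie apart 8 of the 9 pairs passed.

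**Figure D2:**
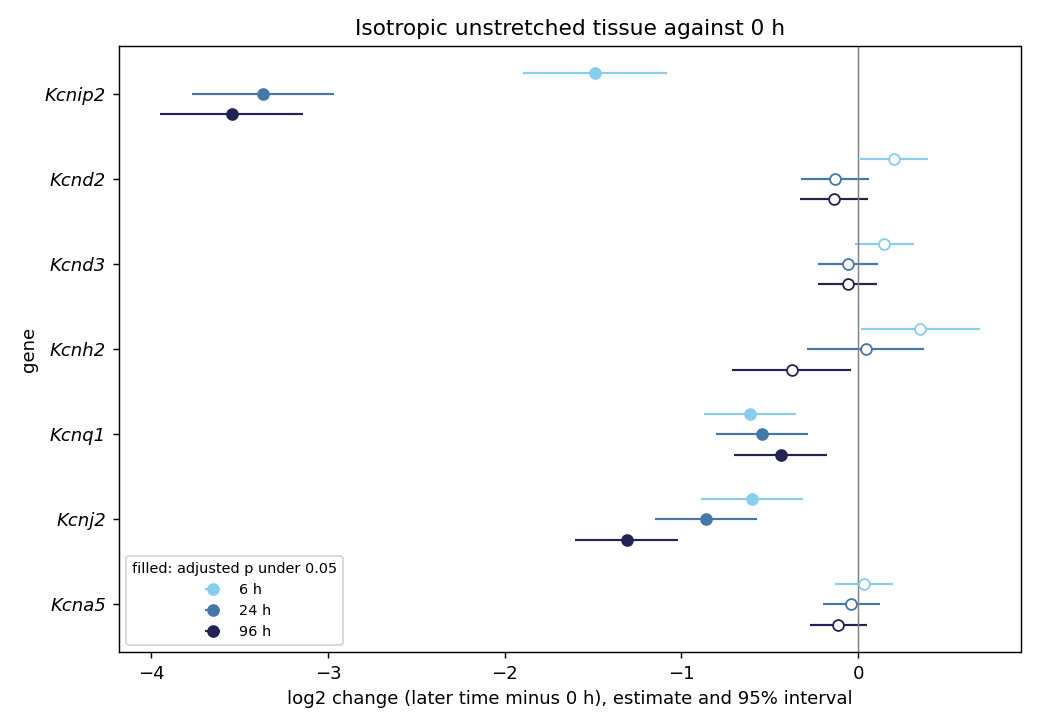
Log2 change (horizontal axis) of isotropic unstretched tissue at 6, 24 and 96 h against 0 h for the 7 genes, with points for the limma estimate, bars for its 95% interval and filled points for an adjusted p under 0.05. Kcnip2, Kcnq1 and Kcnj2 are lower at each time, and Kcnip2 reaches -3.55.

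Markers of other cell types also changed in culture. All 6 endothelial markers measured were lower than at 0 h at 6, 24 and 96 h in limma, with median changes of -1.28, -2.79 and -3.10, and their mean log2 level went from 7.95 to 8.56 over the 0 h arrays to 6.96 to 7.38 at 6 h, 5.57 to 5.82 at 24 h and 5.18 to 5.49 at 96 h. Of 10 cardiomyocyte markers 2, 9 and 7 were lower, with median changes of -0.15, -0.45 and -0.41, and their mean level stayed between 11.1 and 12.1 on every array. Of 8 fibroblast markers 6, 2 and 3 were lower and 1, 2 and 1 higher at the 3 times, with medians of -0.91, -0.31 and -0.08 and mean levels of 9.31 to 10.0 at 0 h and 8.90 to 8.99 at 6 h. Of 5 smooth muscle and pericyte markers 3, 1 and 1 were lower and 1, 1 and 2 higher, with medians of -0.66, 0.10 and 0.50. Of 8 macrophage markers 3, 0 and 2 were lower and 0, 0 and 1 higher. The part of these lists in the falls of Kcnip2, Kcnq1 and Kcnj2 was not tested, and in bulk tissue fewer cells of a type and less RNA per cell cannot be told apart.

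Partner and neighbouring channel genes put the 7 in context, from lists chosen by function. Of 20 partner subunits 1 was higher and 4 lower at 96 h in limma: Kcna4, another pore of the transient outward current, fell by 0.56 (adjusted p = 3.91e-05), Kcnj14, an inward rectifier of the Kir2 family, fell by 0.47 (adjusted p = 8.35e-05), and the KCNE family member annotated as Kcne1l fell by 0.45 (adjusted p = 0.0005). Among 24 other potassium channel genes 2 were higher and 7 lower at 96 h. At that time 16.1% of all genes were lower, and 37.9% were called in either direction. Neither list exceeded the second share. Abcc9 and Kcnj8, the regulatory subunit and a pore of ATP-sensitive channels, changed by -1.55 ± 0.16 and -0.82 ± 0.11, and Kcnn3, a small-conductance calcium-activated channel, by -1.05 ± 0.10. Kcnj5, a pore of the acetylcholine-activated channel, moved the other way at 6 and 24 h (1.19 ± 0.15 and 0.99 ± 0.15).

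Scn3b and Scn4b, sodium channel beta subunits that bind the pore and tune its gating and location, were both higher than at 0 h at 24 and 96 h. Of 13 sodium channel genes 2, 4 and 5 were higher and 2, 1 and 0 lower at 6, 24 and 96 h in limma. Over all genes 31.7%, 36.8% and 37.9% were called in either direction at these times. Scn4b was higher by 0.78 ± 0.28, 2.42 ± 0.28 and 1.06 ± 0.28 at these times. Scn3b was higher by 1.15 ± 0.34 at 24 h and 3.22 ± 0.35 at 96 h. Among 15 calcium and pacemaker channel genes 3 were higher and 3 lower at 96 h, with the T-type pore Cacna1h at -1.53 ± 0.13, the L-type pore Cacna1c at -1.16 ± 0.14 and Trpm7 at -0.80 ± 0.11. Of 13 transcriptional regulators of channel genes 2 were higher and 4 lower at 96 h, led by Irx4, an Iroquois factor of the ventricle, at -1.56 ± 0.16, Sp1 at -0.72 ± 0.10 and Nkx2-5 at 0.45 ± 0.11. Irx3 was higher by 1.35 ± 0.17 and Irx5, known in mice to repress Kcnd2, by 0.62 ± 0.13 at 24 h.

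**Figure D3:**
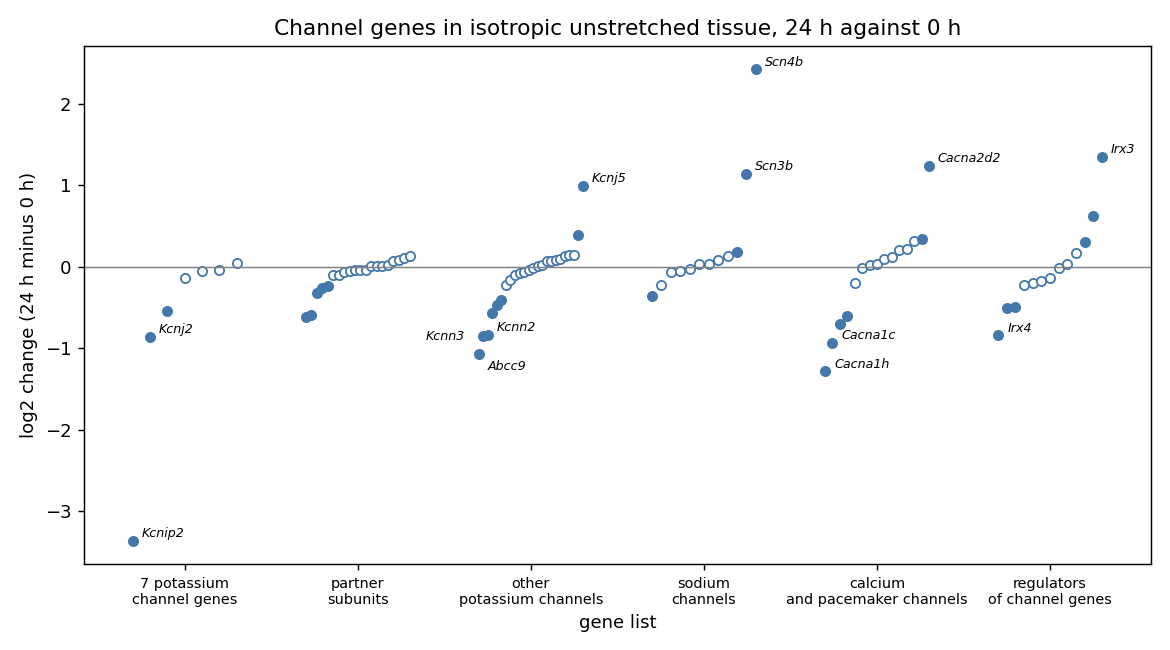
Log2 change at 24 h against 0 h in isotropic unstretched tissue (vertical axis) for the genes of 6 lists that are reported here (horizontal axis), with filled points for an adjusted p under 0.05 and names for called genes that changed by more than 0.8. Kcnip2 at -3.37 lies below every other gene shown, and Scn4b at 2.42 lies above them.

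Under longitudinal stretch 3 of the 7 genes were lower at 96 h. Kcnip2 read 7.14, 5.88 and 6.23 in anisotropic unstretched tissue and 5.71, 5.49 and 5.33 under longitudinal stretch. The 2 groups did not overlap, and the log2 change was -0.91 ± 0.24 (1.88-fold lower, adjusted p = 0.0123 in limma). Kcnh2 read 8.33, 7.83 and 8.36 unstretched and 7.64, 7.32 and 7.26 stretched, again without overlap, a change of -0.65 ± 0.20 (1.57-fold lower, adjusted p = 0.0306). Kcnd3 read 5.36, 5.01 and 5.41 unstretched and 5.12, 4.75 and 4.81 stretched, with 1 stretched array above the lowest unstretched one, a change of -0.32 ± 0.10 (adjusted p = 0.0356). Kcnj2 was at -0.38 ± 0.17 (adjusted p = 0.175), and Kcnd2, Kcnq1 and Kcna5 at -0.12, -0.03 and -0.06. Lower calls made up 5.39% of all genes here and calls of either direction 9.70%, against 3 of 7.

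Under transverse stretch 3 genes were lower at 96 h. Kcnip2 read 6.16, 5.50 and 5.69, overlapping the unstretched arrays, at -0.68 ± 0.23 (1.60-fold lower, adjusted p = 0.0389 in limma). Kcnj2 read 7.69, 6.95 and 7.89 unstretched and 6.73, 6.91 and 7.48 under transverse stretch, at -0.51 ± 0.16 (1.42-fold lower, adjusted p = 0.0303). Its unstretched replicate 2 lay among the stretched arrays. Kcnd3 read 4.90, 4.93 and 4.96, below each unstretched array, at -0.31 ± 0.09 (adjusted p = 0.024). Kcnh2 read 7.83, 7.66 and 7.43 and changed by -0.51 ± 0.19, just short of the threshold (adjusted p = 0.0626). It passed without replicate 4 at 0 h (adjusted p = 0.0469), replicate 2 or 3 of isotropic stretched tissue at 24 h (adjusted p = 0.0353 and 0.0171) or transverse replicate 2 (adjusted p = 0.0475). Lower calls made up 8.65% of all genes and calls of either direction 15%, against 3 of 7.

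These 96 h calls rest on few arrays. Anisotropic unstretched and longitudinally stretched tissue shared 1 harvest and unstretched and transversely stretched tissue shared 2; within them every gene called was lower. Leaving out replicate 1 of the unstretched group ended all 6 calls (Kcnip2 at -0.68, adjusted p = 0.120, for longitudinal and -0.45, adjusted p = 0.267, for transverse stretch), and leaving out replicate 3 ended all but that of Kcnip2 under longitudinal stretch. Without unstretched replicate 2, Kcnj2 passed under longitudinal stretch as well (-0.63, adjusted p = 0.0158). The calls of Kcnip2 were also lost without longitudinal replicate 1 or 3 (-0.80 in both cases) or any transverse array (-0.65 to -0.72), that of Kcnh2 without any longitudinal array or with own-harvest 0 h arrays subtracted (-0.67, adjusted p = 0.0950), those of Kcnd3 without longitudinal replicate 2 or 3, transverse replicate 1 or replicate 6 at 0 h, and that of Kcnj2 without transverse replicate 1 (-0.37) or 2.

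At 6 and 24 h no gene of the 7 passed for longitudinal or transverse stretch in limma, and none had an unadjusted p under 0.05. Of all genes 0.0968% and 2.23% passed for longitudinal and 0% and 1.46% for transverse stretch. The lowest estimate was that of Kcnip2 at 24 h, -0.42 for longitudinal and -0.41 for transverse stretch (95% interval -0.90 to 0.08). Whether the response to stretch differed between times was not tested.

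Stretch of isotropic tissue gave no call at 6, 24 or 96 h. At 96 h Kcnip2 read 5.78, 5.35 and 5.61, each below the unstretched arrays, but the change of -0.37 had an interval of -0.82 to 0.08 (adjusted p = 0.494 in limma). Kcnq1 read 9.05, 8.88 and 8.79 at 96 h, each above the unstretched arrays, at 0.31 ± 0.14 (adjusted p = 0.316). Without the 2 arrays that lie apart these 96 h changes were -0.58 for Kcnip2 (adjusted p = 0.174) and 0.14 for Kcnq1 (adjusted p = 0.723). At 24 h Kcnh2 read 7.75, 7.15 and 8.47 against 8.74, 8.0 and 8.21 unstretched, a change of -0.53 ± 0.18 (adjusted p = 0.103). That value depended on which arrays were used. Without stretched replicate 3 it was -0.92 (adjusted p = 0.000147 in limma), resting in part on replicate 1, which lies apart. Without the 2 arrays that lie apart it was -0.42 (adjusted p = 0.260). Kcnq1 at 24 h passed without the 2 arrays that lie apart (-0.46, adjusted p = 0.043). Calls made up 0.00538%, 3.93% and 2.94% of all genes at the 3 times, and 0, 2 and 1 of the 7 had an unadjusted p under 0.05.

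**Figure D4:**
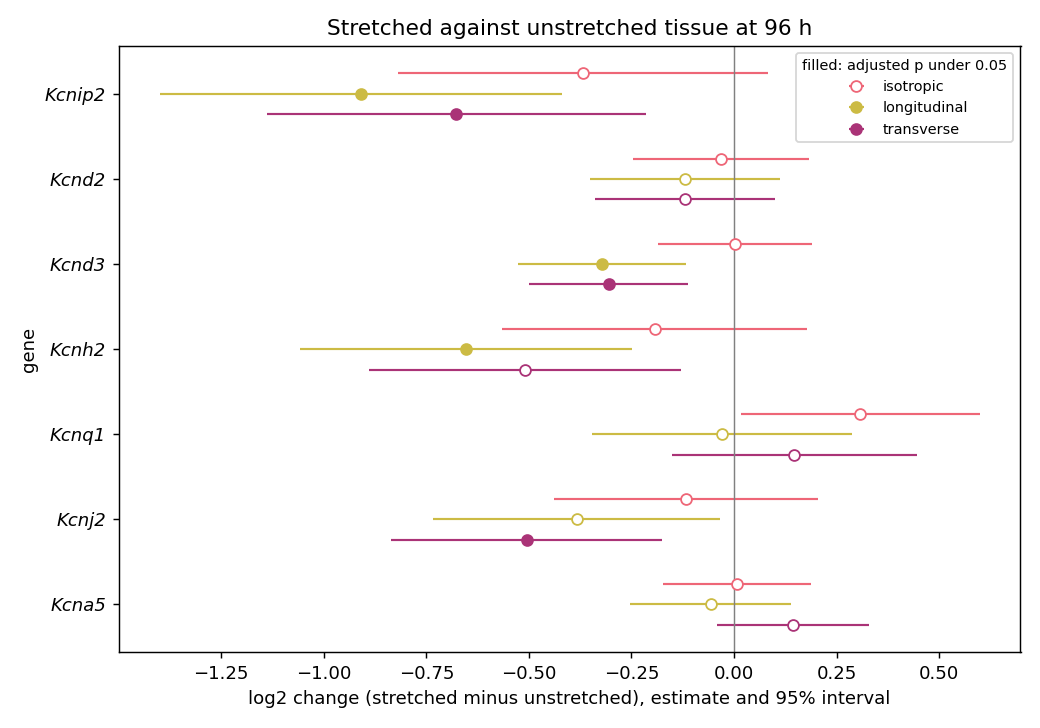
Log2 change of stretched against unstretched tissue at 96 h (horizontal axis) for the 7 genes, for stretch of isotropic tissue and longitudinal and transverse stretch of anisotropic tissue, with points for the limma estimate, bars for its 95% interval and filled points for an adjusted p under 0.05. Kcnip2 and Kcnd3 are filled for both directions of anisotropic stretch, Kcnh2 for longitudinal and Kcnj2 for transverse stretch.

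No difference between the directions of stretch passed the threshold. Transverse minus longitudinal stretch at 96 h was 0.23 for Kcnip2 (95% interval -0.25 to 0.72), 0.14 for Kcnh2 (-0.26 to 0.55), -0.12 for Kcnj2 (-0.47 to 0.23) and 0.02 for Kcnd3 (-0.19 to 0.22). Kcna5 had an unadjusted p of 0.0434 (0.20, adjusted p = 0.868 in limma). No gene of the 7 passed at any time, where 0.0215%, 0% and 0% of all genes did at 6, 24 and 96 h. Genes called under one direction and not the other, such as Kcnh2 and Kcnj2, are therefore not shown to differ between directions.

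Tissue layout without stretch gave no call either, where 0%, 0% and 0.0161% of all genes passed. At 96 h the anisotropic tissue had the higher estimate for Kcnj2 (0.52, 95% interval 0.20 to 0.84, adjusted p = 0.244 in limma), Kcnip2 (0.47, 0.02 to 0.92, adjusted p = 0.450) and Kcnd3 (0.36, 0.17 to 0.55, adjusted p = 0.169), and 3 of the 7 had an unadjusted p under 0.05. Kcnj2 and Kcnd3 passed without anisotropic unstretched replicate 2 (0.77, adjusted p = 0.0378, and 0.46, adjusted p = 0.0469). Without the 2 arrays that lie apart the estimates were 0.53 for Kcnj2, 0.25 for Kcnip2 and 0.21 for Kcnd3, none past the threshold. Kcnd3 was also higher at 96 h than at 24 h in anisotropic unstretched tissue (0.29 ± 0.09, adjusted p = 0.0348), a call lost without replicate 2 or 3 at 24 h or 1 or 3 at 96 h (0.21 to 0.29). A test of whether the stretch response differed between isotropic and anisotropic tissue gave no call among the 7 at any time (0.00538%, 0% and 0% of all genes), with Kcnip2 at 0.43 (95% interval -0.18 to 1.04) at 96 h.

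**Figure D5:**
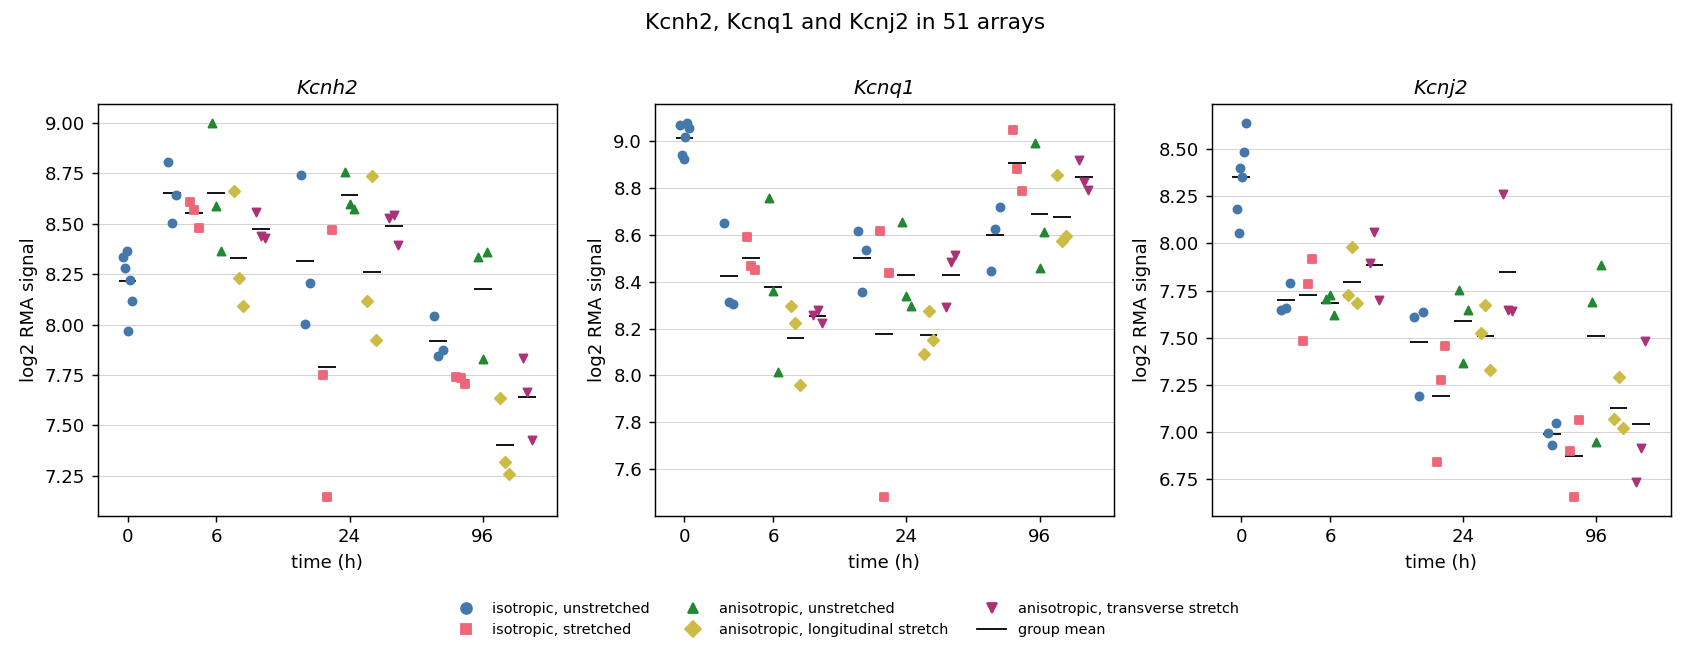
Log2 RMA signal (vertical axis) of Kcnh2, Kcnq1 and Kcnj2 on each of 51 arrays by time in hours (horizontal axis); points are arrays, shapes and colours are the tissue layout and stretch, and black lines are group means. Kcnj2 and Kcnq1 start highest at 0 h, and Kcnh2 is lowest at 96 h under longitudinal stretch, at a mean of 7.41.

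Markers of some other cell types were also lower under anisotropic stretch at 96 h. All 8 macrophage markers were lower under longitudinal and under transverse stretch in limma (medians -1.17 and -1.40), with mean levels of 7.24 to 7.49 over the unstretched arrays, 5.32 to 5.85 over the longitudinal and 5.4 to 5.96 over the transverse arrays. Of 8 fibroblast markers 4 and 5 were lower, with mean levels of 10.1 to 10.4 unstretched, 8.76 to 8.97 longitudinal and 8.32 to 8.75 transverse. Cardiomyocyte markers were lower for 2 of 10 in each, and their mean level lay between 11.3 and 11.9 in these groups. It averaged 11.64 unstretched, 11.68 longitudinal and 11.60 transverse. In the same order smooth muscle and pericyte markers averaged 8.75 ± 0.28, 8.73 ± 0.04 and 8.60 ± 0.34 (SD, n = 3). Endothelial markers averaged 5.36 ± 0.12, 5.07 ± 0.05 and 5.05 ± 0.04. The part of these cells in the falls of Kcnip2, Kcnd3, Kcnh2 and Kcnj2 was not tested.

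Among the channel lists, longitudinal stretch at 96 h changed 0 of 20 partner subunits, 3 of 24 other potassium channels, 2 of 13 sodium channels, 1 of 15 calcium and pacemaker channels and 3 of 13 regulators. Over all genes 9.70% were called in that comparison. Scn4b was at -1.23 ± 0.34 and -0.96 ± 0.32 under longitudinal and transverse stretch, Abcc9 at -0.63 ± 0.19 and -0.80 ± 0.18, and Irx4 at -0.97 ± 0.19 and -0.97 ± 0.18. Nkx2-5, a core cardiac transcription factor, was higher by 0.57 ± 0.14 and 0.64 ± 0.13, and Cacnb1, a beta subunit of L-type calcium channels, by 0.55 ± 0.13 and 0.64 ± 0.12. Under transverse stretch Kcne4, a small subunit that inhibits Kcnq1 channels, was at -1.05 ± 0.27, Kcnk2, a stretch-gated potassium channel, at -1.18 ± 0.38, and the pacemaker channel gene Hcn4 at 0.59 ± 0.17.

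The genes most like each member were sought by Pearson's r over the 16 harvest-adjusted group means, among 2690 genes whose group means ranged over at least 1 log2 unit. The groups share harvests and the course of time in culture, so r is given as a description. Kcnip2 was closest to Lsamp (r = 0.993), Sparcl1 (0.987) and Esam (0.986), an adhesion protein of endothelial junctions. Gstm7 (0.957) and Rad54l2 (0.954) were among the genes closest to Kcnj2. Kcnh2 was closest to Fitm1 (0.965), Parm1 (0.960) and Atp8a1 (0.951), Kcnd2 to Gbp2 (0.964), Tmem140 (0.963) and Plxna2 (0.948), and Kcnq1 to Pde3a (0.913), Tspan13 (0.904) and Tcn2 (0.877). Kcnd3 and Kcna5 had looser matches, with Kif20b at 0.782 and Ddc at 0.751. Among the 7 themselves r was highest for Kcnip2 with Kcnj2 (0.85) and Kcnip2 with Kcnd2 (0.81), while Kcnq1 ran at -0.44 with Kcnh2.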

How the data were processed

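The authors deposited log2 signals of 29214 probe sets on 51 arrays, as RMA values; the submitters' processing notes name Affymetrix Expression Console and limma, without versions. Of the probe sets 20360 carried 1 gene symbol, 8792 none and 62 several; genes with several probe sets were represented by the brightest on average, leaving 18602 genes, with no filter on signal. Per the file headers the authors also gave log2 fold changes against 0 h; they served only to check the labels. Of 15 such columns 13 equalled a difference of labelled group means, and 15 of 15 did when the 2 arrays that lie apart were exchanged; 3 columns headed sm equalled the anisotropic unstretched group and 3 headed ip the isotropic stretched group. Groups follow the sample labels throughout.

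limma 3.58.1 in R 4.3.3 fitted a mean per group and a harvest term (30 residual degrees of freedom) over 25 comparisons and an F test, with Benjamini-Hochberg adjustment per comparison. Harvest comes from the labels; deviations from group means correlated at 0.219 on average between arrays of the same harvest (220 pairs) and at -0.0484 between harvests (995 pairs). The labels do not say whether arrays within a harvest came from separate cultures, so p-values measure the spread between these arrays. Precision is limited by how many arrays there are. The script was tested on simulated data.

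The 7 genes and the lists were chosen with earlier results of these data known. From each channel list up to 3 genes with the largest change among those past the threshold were named per comparison, and the 3 genes with the highest r per gene in the likeness search; a few genes that these rules would name are not reported here. RefSeq promoters (GRCr8) were matched by symbol. Alternatives were the harvest term left out or random, own-harvest 0 h arrays subtracted, repeated quantile scaling, dim genes left out, all probe sets of a symbol averaged, the 2 arrays that lie apart left out, and each array left out in turn. Figures used Python 3.11.15 and matplotlib 3.10.9.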

Additional observations from a re-analysis of the deposited data

How the results depend on the processing

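No result reversed under any alternative. Of 1098 alternative values of the 19 gene and comparison pairs that passed, 1050 stayed past the threshold and 48 did not. The harvest is the replicate block: without the replicate block transverse stretch gave 1 call instead of 3 and the calls of Kcnip2 (adjusted p = 0.182) and Kcnj2 (0.125) were lost, as was Kcnd3 in later culture (0.0506). With harvest as a random block (consensus correlation 0.18) Kcnip2 under transverse stretch was lost (adjusted p = 0.0615). With the own-harvest 0 h array subtracted, later culture gave 2 calls instead of 4 and transverse stretch 0, Kcnh2 under longitudinal stretch was lost (adjusted p = 0.0950) and Kcnd3 at 6 h against 0 h was gained (0.0449). Without the 2 arrays that lie apart isotropic stretch gave 1 call instead of 0. Repeated quantile scaling ended 3 calls, of Kcnip2 under transverse stretch, Kcnd3 under longitudinal stretch and Kcnd3 in later culture (adjusted p = 0.0597, 0.0502 and 0.0594). The filter on dim genes kept 9301 genes, which leaves out Kcnd2, Kcnd3 and Kcna5; Kcnh2 then passed under transverse stretch (adjusted p = 0.0443), at 96 h against 0 h in isotropic tissue (0.0482) and at 96 h against 24 h in anisotropic tissue (0.0498). Each gene had 1 probe set, so averaging probe sets left these values as they were apart from their adjustment. Leaving out each of the 51 arrays in turn, the calls ran from 8 to 11 for culture time (9 with all arrays), from 3 to 6 for later culture (4), from 0 to 1 for isotropic stretch (0), from 0 to 4 for longitudinal stretch (3), from 0 to 4 for transverse stretch (3), from 0 to 2 for layout (0), from 0 to 0 for stretch direction and for layout dependence, and from 5 to 6 for the F test (6). The arrays left out include those of groups outside a comparison, which share its spread and harvest terms. Without replicate 3 of isotropic stretched tissue at 24 h later culture gave 6 calls, with Kcnh2 gained in isotropic (adjusted p = 0.0438) and anisotropic tissue (0.00797), and transverse stretch 4, with Kcnh2 gained (0.0171). The causes of these changes were not tested. Dim signals limit Kcnd2, Kcnd3 and Kcna5. At 96 h the Kcnip2 means also lay below the median gene (5.97), from 5.51 to 5.95, in every group but anisotropic unstretched tissue (6.42).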
